A study of Mus musculus with 11 samples.

Results

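The integrated stress response and unfolded protein response were followed through 9 regulators: Atf4, Ddit3, Trib3, Ppp1r15a, Asns, Chac1, Sesn2, Ern1 and Xbp1. The genes were taken by name, with earlier results of these data known, and all 19 of their probes among the 45281 on the array were read. All 9 genes had a probe that was detected (p below 0.01) on at least 2 of the 11 arrays and were among the 8952 genes tested. The samples were cultures of primary microglia, the resident macrophages of the brain, prepared from newborn C57BL/6J mice and grown in DMEM with heat-inactivated serum and added non-essential amino acids. The 3 IL-4 arrays came from cells given 100 U/ml over 48 h, and the 3 TGFb arrays from cells given 20 ng/ml over 48 h. For the 2 LPS/IFNg arrays the dose was 100 ng/ml LPS plus 20 ng/ml IFNg, over 16 h, and the 3 untreated arrays had neither stimulus nor a stated time. IL-4 and TGFb are cytokines linked to anti-inflammatory states of these cells, and LPS, a bacterial cell wall component, with interferon gamma is a standard proinflammatory stimulus. The LPS/IFNg group differed from the IL-4 and TGFb groups in duration as well as in stimulus, and these cannot be told apart. The labels do not say whether replicates were separate cultures or animals, and p-values reflect the variation among these arrays alone. Values are background-corrected, quantile-normalized log2 signals of the brightest passing probe of a gene, and tests are from limma, with p adjusted over all genes.

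In the integrated stress response, kinases that sense amino acid shortage, double-stranded RNA, haem shortage or misfolded protein in the endoplasmic reticulum (ER) phosphorylate the translation factor eIF2, which slows protein synthesis while favouring translation of the transcription factor ATF4. ATF4 then raises genes for amino acid synthesis, tRNA charging and redox balance, the transcription factor CHOP (Ddit3), and feedback genes such as Trib3 and Ppp1r15a. The unfolded protein response shares the eIF2 arm through the kinase PERK and adds the ER sensors ATF6 and IRE1. IRE1, the product of Ern1, is an RNase that splices the Xbp1 mRNA.

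ATF4 acts through composite C/EBP-ATF elements (CARE), so the promoters of the members called with LPS/IFNg are shown with the motifs found in them. The sequences are from RefSeq on GRCm38.p6, 5′ to 3′ on the strand of the gene, in windows of 250 bases before to 50 bases after each start site, and all 9 genes had an entry. The 4 members that were higher with LPS/IFNg are shown by the 250 bases before the start. Stretches of Asns, Chac1 and Trib3 are added because they hold a CARE core. Capitals mark a motif match, and capitals read TGATGNAA or its reverse complement for the CARE core and TGACGTCA for the CRE.
Atf4 promoter (chr15:80254934-80255183, plus strand): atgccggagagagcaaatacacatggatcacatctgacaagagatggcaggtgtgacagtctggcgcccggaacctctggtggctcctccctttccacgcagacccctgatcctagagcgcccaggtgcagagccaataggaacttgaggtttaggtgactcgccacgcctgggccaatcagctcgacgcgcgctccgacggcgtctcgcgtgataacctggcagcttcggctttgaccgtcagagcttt
Ddit3 promoter (chr10:127290543-127290792, plus strand): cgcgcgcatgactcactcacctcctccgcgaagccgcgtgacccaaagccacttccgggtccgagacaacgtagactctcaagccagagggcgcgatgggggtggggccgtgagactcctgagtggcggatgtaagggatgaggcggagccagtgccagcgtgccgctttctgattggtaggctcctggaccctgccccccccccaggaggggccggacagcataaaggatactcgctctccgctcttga
Trib3 promoter (chr2:152344061-152344310, minus strand): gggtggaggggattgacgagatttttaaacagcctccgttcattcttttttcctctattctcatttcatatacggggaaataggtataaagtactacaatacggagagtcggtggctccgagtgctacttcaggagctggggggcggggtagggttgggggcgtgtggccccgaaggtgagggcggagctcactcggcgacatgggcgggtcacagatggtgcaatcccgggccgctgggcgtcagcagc
Trib3 after the start (chr2:152344028-152344057, minus strand): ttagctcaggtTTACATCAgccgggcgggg
Ppp1r15a promoter (chr7:45526269-45526518, minus strand): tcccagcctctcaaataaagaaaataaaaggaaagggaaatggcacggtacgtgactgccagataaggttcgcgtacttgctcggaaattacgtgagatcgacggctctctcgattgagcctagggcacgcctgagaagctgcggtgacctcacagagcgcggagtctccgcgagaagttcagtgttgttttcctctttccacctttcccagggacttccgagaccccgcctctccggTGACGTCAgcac
Asns promoter (chr6:7693210-7693309, minus strand): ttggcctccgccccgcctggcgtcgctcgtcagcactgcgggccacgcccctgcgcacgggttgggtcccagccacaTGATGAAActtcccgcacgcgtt
Chac1 promoter (chr2:119350992-119351091, plus strand): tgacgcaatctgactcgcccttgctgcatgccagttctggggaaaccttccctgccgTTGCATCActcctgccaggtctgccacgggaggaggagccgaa

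Both strands of the whole windows were searched for 4 motifs. The CARE core TGATGNAA was present in 3 of the 9 windows, against 3.97% of all 32851 windows of this length. In Trib3 it lay on the opposite strand, at positions 15 to 22, counted from 1 at the start site, and is read as TTACATCA in the line above. In Chac1 it lay at positions -193 to -186 from the start, also on the opposite strand, and in Asns at -23 to -16. The cyclic AMP response element (CRE) TGACGTCA was present in 1 of the 9, Ppp1r15a, at -12 to -5, against 1.79% of all windows. Neither the ER stress response element (ERSE, CCAAT and CCACG with 9 bases between), held by 0.119% of all windows, nor the core TGACGTGG of the unfolded protein response element, held by 0.676%, was found in any of the 9. The CRE and that core share their opening letters TGACGT, and no match overlapped another. A match is a description of letters, and a window without one says nothing of the factor.

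Across the arrays the median intensity was 120.1 to 127.3 and 12427 to 14200 probes were detected. Genes that mark each stimulus were high in the arrays labelled with it. Arg1 averaged 12.88 ± 0.53 log2 units with IL-4 and 5.41 ± 1.90 in untreated cells (SD, n = 3 each), Nos2 9.34 ± 0.93 with LPS/IFNg (SD, n = 2) and was not detected in untreated cells, and Tgfbr1 13.47 ± 0.08 with TGFb and 12.16 ± 0.11 in untreated cells (SD, n = 3 each). Of 10 microglia markers, 10 were detected on every IL-4, TGFb and untreated array and 8 on both LPS/IFNg arrays, where P2ry12 and Tmem119 were not detected. The level summed over them was between 90.0 and 93.5 on LPS/IFNg arrays, below the 102.8 to 112.2 of untreated arrays. The markers did not move together. Cx3cr1, Csf1r and Trem2 also lay below every untreated array, while Itgam, C1qa and C1qb overlapped the untreated arrays. Aif1 was higher with LPS/IFNg, at 12.47 and 12.74 against 10.96 to 11.54, as was Ptprc, at 8.00 and 8.71 against 7.20 to 7.64. The part of these levels in the members' differences was not tested. In these bulk cultures a smaller share of cells with a transcript and less transcript per cell cannot be told apart.

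IL-4 replicate 1 stood apart. Its correlations across genes with IL-4 replicates 2 and 3 were 0.945 and 0.954, beside 0.987 between those replicates. It held 81 genes whose signal exceeded that of each remaining array by 1 log2 unit or more, a count that was 0 to 22 for the rest. Of 10 markers of fibroblasts and mural cells it detected 6, with a summed level of 62.1, against 1 to 3 detected and 45.5 to 52.6 on the other 10 arrays. Acta2, smooth muscle actin, was at 11.51 there, while Lum, Pdgfrb and Rgs5 were not detected on any array. It detected 6 of 8 astrocyte markers, summed 47.5, against 0 to 3 detected and 36.3 to 39.9 elsewhere. Gja1, a gap junction protein, was at 11.15, while Aqp4 and S100b were not detected on any array. The part of these transcripts in the IL-4 results was not tested, and the differences named for IL-4 are also given without the array. The LPS/IFNg arrays, in contrast, detected 1 of 10 fibroblast and mural markers, with sums of 46.4 and 48.9, within the range of 45.7 to 50.7 in untreated arrays.

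Atf4 encodes the central transcription factor of the integrated stress response. Its normalized log2 signal was 11.11 and 11.28 in the LPS/IFNg arrays, 10.33, 10.56 and 10.28 in the IL-4 arrays, 10.65, 10.28 and 10.42 in the TGFb arrays and 10.55, 10.36 and 10.29 in the untreated arrays. The LPS/IFNg arrays were the highest of the 11, and the other 3 groups overlapped. Atf4 rose with LPS/IFNg by 0.80 ± 0.17 log2 units against untreated cells (SE, limma adjusted p = 0.0038), a fold change of 1.74. ATF4 is controlled mainly by translation, which these arrays do not measure.

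Ddit3 encodes CHOP, a transcription factor that promotes cell death under prolonged stress. The scanner intensities of its brighter probe were 816 and 660 with LPS/IFNg and 243, 315 and 275 in untreated cells. After normalization these were 9.62 and 9.27 log2 units with LPS/IFNg, 8.92, 7.51 and 7.08 with IL-4, 7.24, 7.70 and 7.43 with TGFb and 7.28, 7.52 and 7.18 in untreated cells. The LPS/IFNg arrays lay above all others, IL-4 replicate 1 came next, and the remaining 8 arrays lay between 7.08 and 7.70. Ddit3 rose with LPS/IFNg by 2.11 ± 0.42 log2 units against untreated cells (SE, limma adjusted p = 0.0025), a fold change of 4.33.

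Trib3 encodes a pseudokinase that is induced by ATF4 and CHOP and dampens ATF4 activity. It was at 7.51 and 6.89 log2 units with LPS/IFNg, at 6.36, 5.19 and 4.74 with IL-4, at 5.24, 5.67 and 5.25 with TGFb and at 5.08, 4.91 and 5.19 in untreated cells. The third IL-4 and TGFb replicates and the second untreated replicate did not detect it, so the lower groups sat close to background. The order of arrays matched that of Ddit3 at the top, with the LPS/IFNg arrays highest and IL-4 replicate 1 next. Trib3 rose with LPS/IFNg by 2.14 ± 0.39 log2 units against untreated cells (SE, limma adjusted p = 0.0014), a fold change of 4.41. The size depended on the processing. It was 0.88 log2 units without background correction and 0.76 in the authors' deposited values, which also carry a constant per probe and slide. The call was made in both.

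Ppp1r15a encodes GADD34, the inducible subunit that brings protein phosphatase 1 to eIF2 and ends the translation block. It was at 9.30 and 9.51 log2 units with LPS/IFNg, at 7.61, 7.76 and 7.56 with IL-4, at 7.40, 7.77 and 7.23 with TGFb and at 7.46, 7.61 and 7.73 in untreated cells. Again only the LPS/IFNg arrays separated, and here IL-4 replicate 1 lay among the other arrays. Ppp1r15a rose with LPS/IFNg by 1.80 ± 0.19 log2 units against untreated cells (SE, limma adjusted p = 3.61e-05), a fold change of 3.48.

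**Figure D1:**
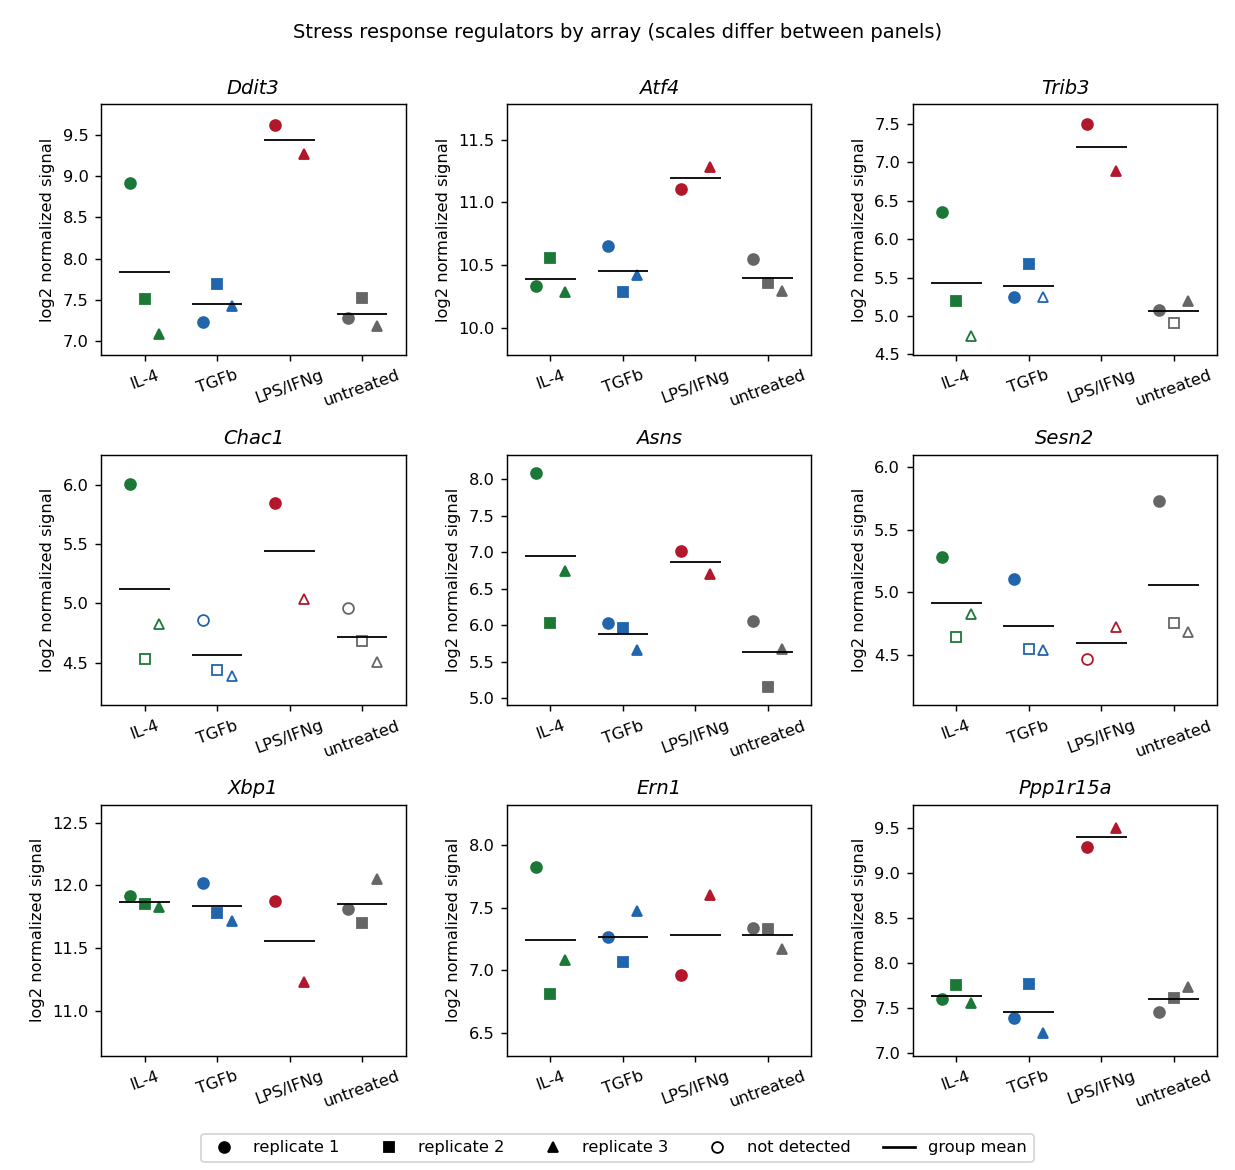
Normalized log2 signal of the 9 regulators on each of the 11 arrays, with 1 panel per gene and its own scale; points are arrays (shape gives the replicate, open points were not detected) and bars are group means. The LPS/IFNg arrays lie above all untreated arrays for Ddit3, Atf4, Trib3, Chac1, Asns and Ppp1r15a, and IL-4 replicate 1 lies above the other IL-4 arrays for Ddit3, Trib3, Chac1, Asns, Sesn2 and Ern1.

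Among the targets, Asns, the asparagine synthetase that ATF4 induces during amino acid shortage, was at 7.02 and 6.70 log2 units with LPS/IFNg, at 8.08, 6.03 and 6.74 with IL-4, at 6.03, 5.95 and 5.66 with TGFb and at 6.05, 5.15 and 5.67 in untreated cells. IL-4 replicate 1 was the highest array, and the LPS/IFNg arrays lay above every untreated array. The difference of 1.23 ± 0.48 log2 units between LPS/IFNg and untreated cells did not pass the test (SE, limma adjusted p = 0.0628). It passed in the fit without IL-4 replicate 1, where the groups compared are the same and the estimate of the spread changes, with an adjusted p of 0.0064. The difference between IL-4 and untreated cells, 1.33 ± 0.43 with all arrays (adjusted p = 0.189) and 0.76 ± 0.29 without IL-4 replicate 1 (adjusted p = 0.247), did not pass.

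Chac1, an enzyme that breaks down glutathione and a target of ATF4 and CHOP, was detected on only 2 arrays, IL-4 replicate 1 at 6.00 and LPS/IFNg replicate 1 at 5.85. LPS/IFNg replicate 3 was at 5.04, and the other 8 arrays lay between 4.39 and 4.96, none of them with a detected signal. No untreated array detected Chac1, nor did LPS/IFNg replicate 3. Against the lowest detected signal the LPS/IFNg mean was 1.30-fold higher, which is no minimum because the mean includes that undetected array. The fitted difference of 0.73 log2 units did not pass the test (limma adjusted p = 0.169). It rested on LPS/IFNg replicate 1, without which it was 0.32. Without IL-4 replicate 1 the adjusted p was 0.0448. Sesn2, a stress-induced inhibitor of the growth kinase mTORC1, was detected on 3 arrays, IL-4 replicate 1 at 5.28, TGFb replicate 1 at 5.11 and untreated replicate 1 at 5.73, and on neither LPS/IFNg array (4.47 and 4.72). The first replicate was the highest of its group for Sesn2 in the IL-4, TGFb and untreated groups.

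In the IRE1 arm, Ern1, the sensor itself, was at 6.97 and 7.60 log2 units with LPS/IFNg, at 7.83, 6.81 and 7.08 with IL-4, at 7.27, 7.06 and 7.48 with TGFb and at 7.34, 7.33 and 7.17 in untreated cells. The groups overlapped, and the difference between LPS/IFNg and untreated cells was 0.00 ± 0.29 log2 units (SE, limma adjusted p = 0.99). Xbp1, whose spliced mRNA encodes the active transcription factor of this arm, was at 11.88 and 11.23 with LPS/IFNg, at 11.91, 11.85 and 11.83 with IL-4, at 12.02, 11.78 and 11.71 with TGFb and at 11.81, 11.70 and 12.05 in untreated cells. LPS/IFNg replicate 3 was the lowest array, while replicate 1 lay among the untreated arrays. The difference was -0.30 ± 0.21 log2 units (SE, limma adjusted p = 0.271), and 0.02 without LPS/IFNg replicate 3. In the authors' deposited values, which carry a constant per probe and slide, it was -0.42. Its adjusted p there was 0.0353, from a fit without a slide term. With slide as a fixed block on the values used here, the difference was -0.43 and did not pass (adjusted p = 0.125). The files give 1 value for Xbp1 and do not separate its spliced and unspliced forms.

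With LPS/IFNg, 4 of the 9 members were called higher than in untreated cells at an adjusted p below 0.05 and 0 lower. Over all 8952 genes 41.0% were called, 17.5% higher and 23.5% lower, so calls were common in this comparison. For 6 of the 9 members the groups did not overlap, against 63.1% of all genes, a share close to the background. The median member differed by 0.80 log2 units, beside -0.07 for all genes. The 4 members were also called with slide as a fixed block, where the differences were 1.85 for Ddit3 (adjusted p = 0.0076), 0.78 for Atf4 (0.011), 1.83 for Trib3 (0.0033) and 1.74 for Ppp1r15a (0.000196). On slide 2 alone, which held all untreated arrays and 1 LPS/IFNg array, they were 1.94, 0.88, 1.83 and 1.91, each with an adjusted p below 0.05 on the assumption that the lone array varies like the untreated ones. Slide 1 held no untreated array. Without IL-4 replicate 1, Asns and Chac1 also passed, which made 6 of 9, and 44.8% of all genes were then called.

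**Figure D2:**
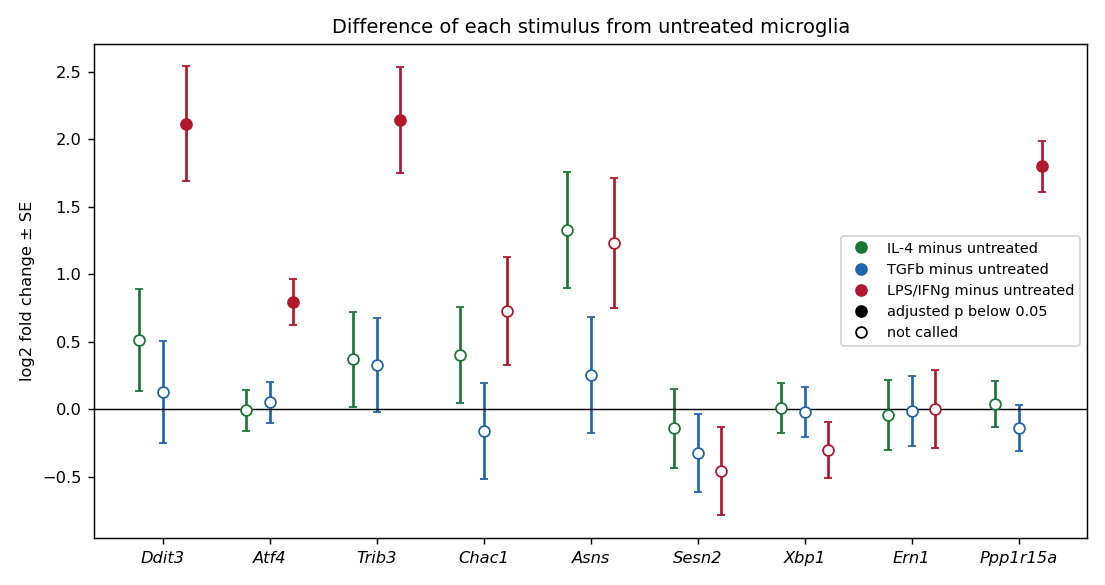
Log2 fold change of each regulator against untreated microglia, with 1 point per stimulus and bars of ± SE from the linear model over 11 arrays; filled points have an adjusted p below 0.05. Filled points occur only for LPS/IFNg, at 2.11 for Ddit3, 0.80 for Atf4, 2.14 for Trib3 and 1.80 for Ppp1r15a.

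Set against the other stimuli, the same 4 members were higher with LPS/IFNg. Against IL-4 the differences were 1.60 ± 0.42 for Ddit3, 0.80 ± 0.17 for Atf4, 1.77 ± 0.39 for Trib3 and 1.76 ± 0.19 for Ppp1r15a (SE, limma adjusted p = 0.0123, 0.0038, 0.0047 and 4.66e-05), in a comparison that called 40.0% of all genes. Without IL-4 replicate 1 they were 2.14 for Ddit3, 0.77 for Atf4, 2.23 for Trib3 and 1.74 for Ppp1r15a, all still called. The other Ddit3 probe did not pass against IL-4, at 1.51 ± 0.54 (SE, adjusted p over 15937 probes = 0.0511), and without LPS/IFNg replicate 1 neither did Ddit3 (0.0851) and Trib3 (0.0535). Against TGFb they were 1.99 ± 0.42 for Ddit3, 0.74 ± 0.17 for Atf4, 1.81 ± 0.39 for Trib3 and 1.94 ± 0.19 for Ppp1r15a (adjusted p = 0.0033, 0.0051, 0.0036 and 1.83e-05), where 42.0% of all genes were called. These comparisons share the LPS/IFNg arrays with each other and with the comparison against untreated cells. Asns did not differ between LPS/IFNg and IL-4 beyond its spread, at 6.86 ± 0.23 (SD, n = 2) and 6.95 ± 1.04 (SD, n = 3), a difference of -0.09 ± 0.48 (SE). It was 0.47 ± 0.32 without IL-4 replicate 1 (adjusted p = 0.268).

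With IL-4, 0 of the 9 members were called against untreated cells in the limma fit, and 1, Asns, had an unadjusted p under 0.05. IL-4 called 1.28% of all genes, 0.860% higher and 0.424% lower. No member had groups that did not overlap, against 18.5% of all genes, and the median member differed by 0.04, beside 0.01 for all genes. Ddit3 differed by 0.51 ± 0.38 log2 units with all IL-4 arrays and by -0.03 ± 0.21 without IL-4 replicate 1, and Trib3 by 0.37 ± 0.35 and -0.09 ± 0.23 (SE). IL-4 replicate 1 exceeded the mean of the other IL-4 arrays by 1.70 for Asns, 1.62 for Ddit3, 1.39 for Trib3, 1.32 for Chac1, 0.88 for Ern1 and 0.54 for Sesn2, and differed by 0.07 for Xbp1, -0.06 for Ppp1r15a and -0.09 for Atf4. For 5 of 9 members (55.6%) it was the highest of the 9 arrays without LPS/IFNg, as it was for 1753 of 8952 genes (19.6%). Ppp1r15a and Atf4, which rose with LPS/IFNg beside Ddit3 and Trib3, were thus not raised in this array.

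**Figure D3:**
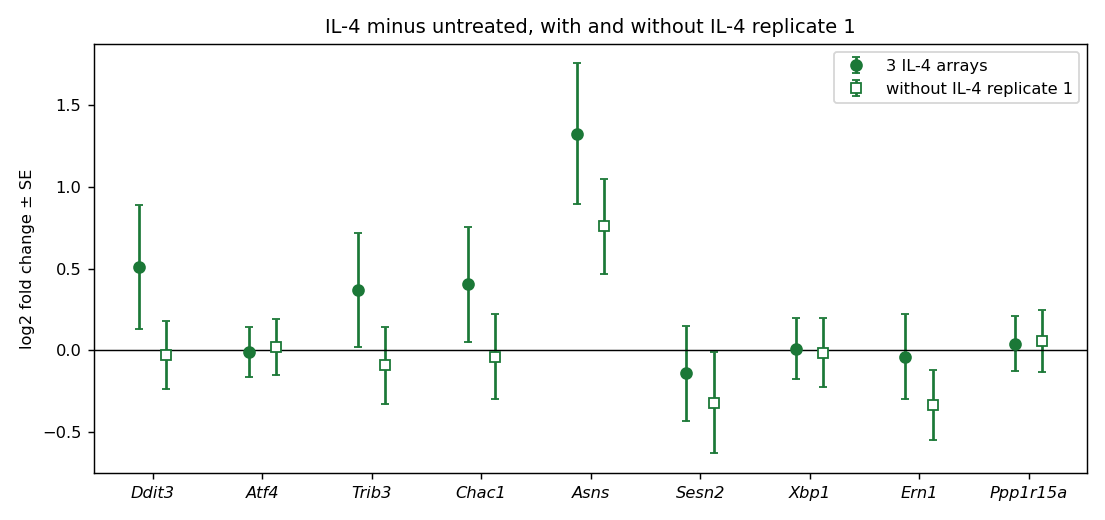
Log2 fold change of each regulator, IL-4 minus untreated, from the fit of all 11 arrays (filled circles) and from the fit without IL-4 replicate 1 (open squares), with bars of ± SE. Ddit3 moves to -0.03 from 0.51 and Asns to 0.76 from 1.33 when the array is left out, and Atf4, Xbp1 and Ppp1r15a stay near 0.

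TGFb also called 0 of the 9 members against untreated cells in the limma fit, with 0 at an unadjusted p under 0.05, where 0.983% of all genes were called, 0.614% higher and 0.369% lower. Trib3 was the 1 member whose groups did not overlap, by 0.33 ± 0.35 log2 units (SE, adjusted p = 0.838), against 17.7% of all genes. The median member differed by -0.01, beside 0.01 for all genes. IL-4 against TGFb called 0 members and 8.58% of all genes, and 1 member had an unadjusted p under 0.05. That member was Asns, 1.07 ± 0.43 higher with IL-4 (SE, limma adjusted p = 0.172). Without IL-4 replicate 1 it was 0.51 (adjusted p = 0.360). In the order of the members by group mean, 1 step passed the test with all arrays for Ddit3, Atf4, Trib3 and Ppp1r15a, that of LPS/IFNg above IL-4, TGFb and untreated cells, which the test did not separate from each other. For Chac1, Asns, Sesn2, Xbp1 and Ern1 no step passed.

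Of the 19 probes, 12 passed the detection filter, and the 7 that did not (2 each of Trib3, Sesn2 and Ern1, 1 of Asns) were detected on no array. Ddit3, Atf4 and Asns each had a second passing probe. For Ddit3 it read 8.70 and 8.84 with LPS/IFNg, 8.71, 6.77 and 6.30 with IL-4, 6.52, 7.19 and 6.90 with TGFb and 6.66, 6.90 and 6.67 in untreated cells. It placed IL-4 replicate 1 level with the LPS/IFNg arrays, where the brighter probe placed it below them. Both Ddit3 probes rose with LPS/IFNg by about the same amount, 2.11 ± 0.42 and 2.03 ± 0.54 log2 units (SE, limma adjusted p over 15937 probes = 0.0027 and 0.0132). For Atf4 the other probe read 9.80 and 9.71 with LPS/IFNg and 8.37, 8.69 and 8.62 in untreated cells, a rise of 1.19 ± 0.19 (SE, adjusted p = 0.000689), which exceeds the 0.80 of the brighter probe. The other Asns probe was detected on 4 arrays, IL-4 replicates 1 and 2, LPS/IFNg replicate 1 and TGFb replicate 2, and on no untreated array.

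**Figure D4:**
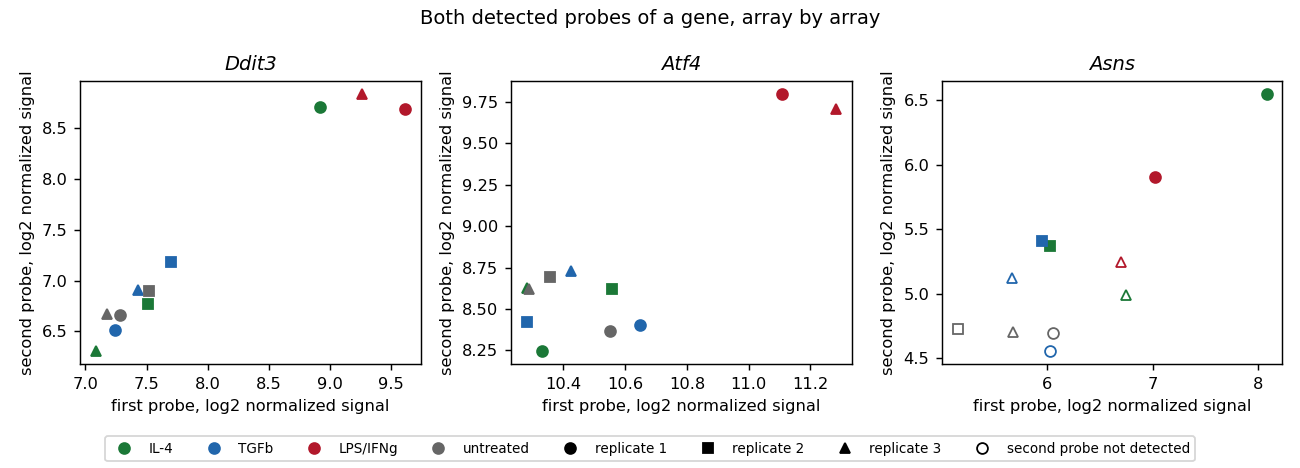
The brighter (x axis) against the other passing probe (y axis) of Ddit3, Atf4 and Asns in normalized log2 signal, with 1 point per array; colours give the group, shapes the replicate, and open points mark arrays on which the other probe was not detected. The LPS/IFNg arrays are apart for Atf4 on both axes. IL-4 replicate 1 is level with them for Ddit3 on the y axis alone, and exceeds them for Asns.

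Around the members, 12 genes for eIF2, its kinases and phosphatase subunits and its exchange factor eIF2B were tested. With LPS/IFNg 5 rose and 0 fell, with a median of 0.27 log2 units. Over all 8952 genes 17.5% were called higher and 23.5% lower with a median of -0.07, the background for this and the following lists. Ppp1r15b, the constitutive counterpart of Ppp1r15a, averaged 8.38 ± 0.20 with LPS/IFNg (SD, n = 2) and 6.04 ± 0.16 in untreated cells (SD, n = 3), a rise of 2.34 ± 0.25 (SE, limma adjusted p = 4.6e-05). Eif2ak2, the interferon-induced kinase PKR that senses double-stranded RNA, rose by 2.08 ± 0.46 (adjusted p = 0.0045). The eIF2B subunit gene Eif2b1 rose by 0.70 ± 0.14 (adjusted p = 0.0019). Under median scaling of the arrays, which moved the median of all genes by -0.18, 2 of the 12 were called.

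The other transcription factors and feedback genes of the response were split with LPS/IFNg, with a median of 0.17 log2 units. Of 14, 3 rose and 4 fell, beside 17.5% and 23.5% of all genes. Jdp2, a bZIP repressor, rose by 3.02 ± 0.60 (SE, limma adjusted p = 0.0024), Nupr1, a stress-induced chromatin protein, by 2.99 ± 0.98 (0.0313) and Gadd45a, a growth arrest gene, by 1.03 ± 0.26 (0.0095). With slide as a fixed block, without untreated replicate 2 or without either LPS/IFNg array, Nupr1 was no longer called, with an adjusted p of up to 0.122. Bcl2l11, the cell death promoter BIM and a CHOP target, fell by 3.07 ± 0.39 (0.000134), to 7.47 ± 0.04 with LPS/IFNg (SD, n = 2), against 10.54 ± 0.47 in untreated cells (SD, n = 3). Atf5, an ATF4 relative, fell by 0.98 ± 0.32 (0.0338) and Map1lc3b, the autophagosome protein LC3B, by 0.96 ± 0.23 (0.0068). Without LPS/IFNg replicate 3, untreated replicate 1 or untreated replicate 2, Atf5 was no longer called, and without LPS/IFNg replicate 1 neither were Gadd45a and Map1lc3b.

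Of 10 tested genes of amino acid synthesis and transport, 2 rose with LPS/IFNg and 0 fell, with a median of 0.00 log2 units. Over all genes 17.5% rose and 23.5% fell. Psat1, an enzyme of serine synthesis, averaged 13.11 ± 0.31 with LPS/IFNg (SD, n = 2) and 10.08 ± 0.29 in untreated cells (SD, n = 3), a rise of 3.03 ± 0.39 (SE, limma adjusted p = 0.000139). Mthfd2, of mitochondrial folate metabolism, rose by 2.21 ± 0.22 (2.47e-05). Among 19 tested genes for cytosolic aminoacyl-tRNA synthetases and the tRNA exporter Xpot, 4 rose and 2 fell, with a median of 0.09. Wars, the interferon-induced tryptophanyl-tRNA synthetase, rose by 2.21 ± 0.15 (2.02e-06), the lysyl form Kars by 1.23 ± 0.15 (0.000104) and the alanyl form Aars by 1.11 ± 0.23 (0.0030). Xpot fell by 0.84 ± 0.23 (0.0132) and Farsb, a subunit of the phenylalanyl form, by 0.64 ± 0.21 (0.0306). Farsb was not called with slide as a fixed block. The Xpot call was lost without LPS/IFNg replicate 3, and the Farsb call without either LPS/IFNg array or without untreated replicate 2 or 3.

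On the ER side the genes moved both ways with LPS/IFNg. Of 13 sensors and their regulators 4 rose and 3 fell (median 0.05 log2 units), beside 17.5% and 23.5% of all genes. Bak1, a cell death effector that binds IRE1, rose by 1.22 ± 0.27 (SE, limma adjusted p = 0.0044), Creb3, an ER-membrane transcription factor, by 1.02 ± 0.16 (0.000459) and Traf2, the IRE1 adaptor to JNK signalling, by 0.87 ± 0.26 (0.0200). Sil1, a cofactor of the chaperone BiP, fell by 1.07 ± 0.30 (0.0141), Mbtps1, the protease that activates ATF6, by 0.73 ± 0.26 (0.0413), and Map3k5, the kinase ASK1, was at least 1.26-fold lower with LPS/IFNg, where no array detected it (0.0109). The calls of Bak1, Map3k5 and Mbtps1 were lost without LPS/IFNg replicate 1, and those of Traf2, Sil1 and Mbtps1 without LPS/IFNg replicate 3. Traf2 was also lost without untreated replicate 2, and Mbtps1 without TGFb replicate 2 or untreated replicate 1 or 3. With slide as a fixed block neither Traf2 nor Mbtps1 was called.

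Of 20 ER chaperones and folding enzymes 3 rose and 1 fell (median 0.05 log2 units), beside 17.5% and 23.5% of all genes. Creld2, an ER stress-inducible protein, rose by 1.40 ± 0.25 (SE, limma adjusted p = 0.0014) and the disulfide isomerase Pdia6 by 1.06 ± 0.35 (0.0321). Erp44, a retention factor, rose by 0.65 ± 0.24 (0.0469) and was undetected in untreated cells, which places that group close to background. The rise ran over 0.18 to 0.90 in the alternative fits. The disulfide isomerase Txndc5 fell by 0.72 ± 0.22 (0.0223). Among these, Creld2 alone was called in all alternative fits. Leaving out an array ended the call of Pdia6 for either LPS/IFNg array and untreated replicates 1 and 2, that of Txndc5 for LPS/IFNg replicate 3 and untreated replicate 3, and that of Erp44 for 8 of the 11 arrays.

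Of 26 genes of ER-associated degradation, translocation and transport 4 rose and 4 fell (median 0.29 log2 units), beside 17.5% and 23.5% of all genes. Syvn1, the ubiquitin ligase HRD1, rose by 0.90 ± 0.17 (SE, limma adjusted p = 0.0018), Srpr, the receptor of the signal recognition particle, by 0.88 ± 0.20 (0.0047) and Sec61a1, the translocation channel, by 0.75 ± 0.22 (0.0171). Os9, a lectin of the degradation machinery, fell by 0.75 ± 0.25 (0.0370), the signal recognition particle gene Srp14 by 0.54 ± 0.18 (0.0345) and the translocon gene Ssr4 by 0.45 ± 0.15 (0.0365). With slide as a fixed block Os9, Srp14 and Ssr4 were not called. On slide 2 alone none of the 26 was called, 0 higher and 0 lower. Without LPS/IFNg replicate 1 the calls of Sec61a1, Os9, Srp14 and Ssr4 were lost, and without LPS/IFNg replicate 3 those of Os9, Srp14 and Ssr4, while each of these 4 also needed at least 1 other array. Without IL-4 replicate 1, 44.8% of all genes were called with LPS/IFNg. Risen and fallen counts were then 5 and 0 of 12 for the eIF2 genes and 3 and 4 of 14 for the factors. Amino acid genes had 3 and 0 of 10, synthetases 5 and 2 of 19 and sensors 5 and 3 of 13. Chaperones had 3 and 1 of 20, and degradation and transport 6 and 4 of 26.

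**Figure D5:**
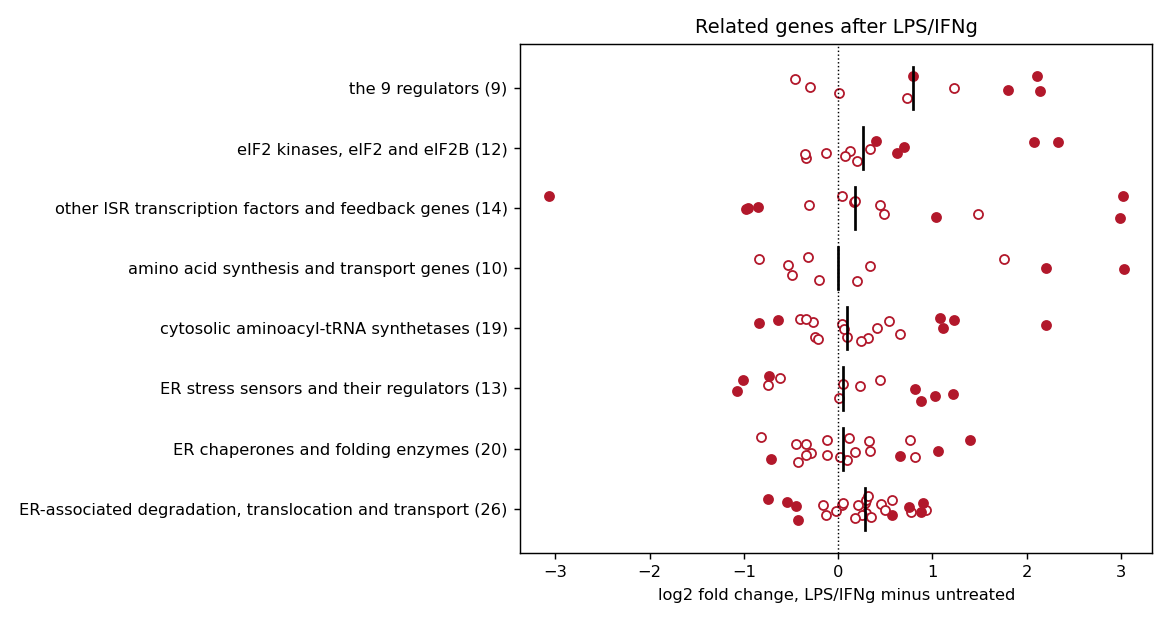
Log2 fold change, LPS/IFNg minus untreated, of each tested gene in the 9 regulators and in 7 lists of related genes, with the number tested in brackets; filled points have an adjusted p below 0.05 and black bars are list medians. The regulators have a median of 0.80 and no filled point below 0, and the 7 lists have medians of 0.00 to 0.29 with filled points on both sides of 0 in 5 of them.

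With IL-4 or TGFb few related genes passed the test, beside 1.28% and 0.983% of all genes. IL-4 raised Eif2b2, a subunit of eIF2B, by 0.83 ± 0.16 log2 units (SE, limma adjusted p = 0.0393) and Rars, the arginyl-tRNA synthetase, by 0.80 ± 0.16 (0.0416), which were 1 of 12 and 1 of 19 tested genes of their lists. TGFb raised Psat1 by 1.77 ± 0.35 (0.0450), Rtcb, the ligase that joins spliced Xbp1, by 1.23 ± 0.21 (0.0261) and Edem2, a mannosidase of ER-associated degradation, by 0.94 ± 0.19 (0.0472), which were 1 of 10, 1 of 13 and 1 of 26. None of the lists had a gene that fell with either cytokine. All of these calls were lost with slide as a fixed block. Among the 11 fits that each leave out an array, 9 lost Eif2b2 (IL-4 replicate 1 among them), 10 Rars, 9 Psat1, 5 Rtcb and 9 Edem2. Psat1 thus passed the test with TGFb and with LPS/IFNg, and differed by -0.55 ± 0.35 with IL-4 (SE, adjusted p = 0.529), or -0.11 without IL-4 replicate 1. Without that array Rars with IL-4 was at 0.86 (0.0434) and Eif2b2 at 0.78 (0.0648). Lists without a call are represented by their brightest gene. Cebpb, a partner of CHOP and ATF4, differed by -0.68 ± 0.30 with IL-4 (0.347) and -0.42 ± 0.30 with TGFb (0.701), P4hb, a disulfide isomerase, by -0.01 ± 0.18 (0.984) and 0.17 ± 0.18 (0.837). With IL-4, Tmbim6, an inhibitor of IRE1, differed by -0.24 ± 0.15 (0.535) and Ssr4 by 0.23 ± 0.14 (0.507). With IL-4 replicate 1 left out, the IL-4 differences were -0.73 for Cebpb, 0.04 for P4hb, -0.33 for Tmbim6 and 0.28 for Ssr4, and none was called. With TGFb, Gars differed by 0.01 ± 0.13 (0.994) and Ppp1ca, a catalytic subunit of protein phosphatase 1, by -0.06 ± 0.18 (0.963).

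Across all genes, the profile most like each called member over the 11 arrays was sought by the root mean square distance between gene-centred log2 values. Trib3 was among the genes nearest to Ddit3, at 0.205, where the median gene lay at 0.957. Trib3 had Ddit3 at 0.205 and Gch1, an enzyme of tetrahydrobiopterin synthesis, at 0.254 (median 0.936). Nearest to Ppp1r15a were Katna1, a microtubule-severing subunit, at 0.135 and Bahd1, a chromatin protein, at 0.145 (median 0.824), and neither was high in IL-4 replicate 1, at 9.53 and 8.07. Nearest to Atf4 were Kcnab1, a potassium channel subunit, at 0.126 and Kri1 at 0.129 (median 0.496), although Kcnab1 was at 5.38 and 5.41 with LPS/IFNg and 4.27 to 4.68 elsewhere, far closer to background. These distances are descriptions, and the points share the same arrays, among them the LPS/IFNg arrays on which the members were called.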

How the data were processed

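RNA of 11 microglia samples was hybridised as biotinylated cRNA to Illumina mouse BeadChips on 2 slides. Per the file headers, the scanner file lists for all 45281 probes an unnormalized intensity and a detection p-value. The authors also deposited log2 values. On comparison these equalled the quantile-normalized log2 intensity plus a constant per probe and slide, with departures of at most 0.0081. Partek is named in the submitters' processing notes, and what else was done is not given in the sources used here. Every per-sample column was used.

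Intensities were background corrected, quantile normalized and log2 transformed by neqc (limma 3.58.1, R 4.3.3; offset 16). Probes detected at p below 0.01 on at least 2 arrays were kept, and each gene was taken by its brightest probe. Group means of all 11 arrays were fitted with lmFit and eBayes, 6 contrasts were tested, and p-values were adjusted over 8952 genes by Benjamini-Hochberg, with calls below 0.05. The pipeline was tested on simulated data with few changed genes, large effects and no slide effect or deviant array, a simpler setting than these data. For genes without a detected signal anywhere in the lower group, a fold is a bound set by the lowest detected signal, which for Chac1 gives no minimum. Erp44 is given by its fitted difference instead. The members and gene lists were chosen with earlier results of these data known. Genes named outside the members are, per list and stimulus, the 3 largest called rises and falls or, with none, the brightest gene. Probe symbols come from GEO's platform annotation, updated through RefSeq; some list genes had no probe named here and were not analysed here. A gene with a profile like that of Ddit3 is not reported here.

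Replicate numbers were checked for pairing by the correlation of same-numbered deviations from group means. These were 0.40, 0.44 and 0.26 between IL-4 and untreated arrays, which were therefore also fitted with a replicate block. They were 0.49, 0.11 and -0.10 between TGFb and untreated arrays, and 0.20 and -0.16 between LPS/IFNg and untreated arrays. Pairs of unlike number with untreated arrays ran from -0.48 to 0.42. The alternatives were other background, scaling and detection settings, the authors' table, every probe, slide and replicate blocks, array weights, robust eBayes, the arrays of 2 groups alone and leaving out each array. The number of arrays limits the precision.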

Additional observations from a re-analysis of the deposited data

How the results depend on the processing

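The LPS/IFNg calls of Ddit3, Atf4, Trib3 and Ppp1r15a against untreated cells were made under all 25 alternatives. Many of these, such as leaving out an IL-4 or TGFb array, cannot change the difference, only the spread or the adjustment. All draw on the same LPS/IFNg arrays. Their log2 differences ran over 1.41 to 2.29 for Ddit3, 0.71 to 0.90 for Atf4, 0.76 to 2.45 for Trib3 and 1.36 to 1.91 for Ppp1r15a, with adjusted p up to 0.0273, 0.0481, 0.0212 and 0.0048. The lowest Ddit3, Trib3 and Ppp1r15a values came from the authors' table. Against IL-4, Ddit3 missed the threshold on the arrays of those groups alone (adjusted p = 0.0607) and without LPS/IFNg replicate 1 (0.0851), Trib3 without LPS/IFNg replicate 1 (0.0535) and Atf4 on slide 2 alone (0.0738). Against TGFb, Atf4 missed it on slide 2 alone (0.103) and without LPS/IFNg replicate 3 (0.0502). Asns against untreated cells passed with LPS/IFNg under 5 alternatives, among them the replicate block (1.01, adjusted p = 0.0497).

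Ddit3 in IL-4 against untreated cells turned to -0.24 on slide 2 alone and, with each array left out in turn, ran over -0.027 (without IL-4 replicate 1) to 0.89. Trib3 turned to -0.028 in the authors' table, -0.040 with slide as a fixed block, -0.32 on slide 2 alone and -0.13 with array weights, and ran over -0.092 (without IL-4 replicate 1) to 0.71. Xbp1 with LPS/IFNg ran over -0.63 to 0.023 against untreated cells and -0.64 to 0.012 against IL-4, turning without LPS/IFNg replicate 3. Leaving out each array in turn, IL-4 against TGFb called 0 to 1 members, the 1 being Asns without IL-4 replicate 2. The causes were not tested. With the numbers paired as a replicate block in a fit of IL-4 and untreated cells only, 0 members were called, and the Eif2b2 and Rars calls were lost.

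Median scaling moved the median of all genes by -0.18 in LPS/IFNg against untreated cells and called 1011 genes higher and 2322 lower, beside 1568 and 2106. In TGFb against untreated cells it called 24 higher and 42 lower, beside 55 and 33, and in IL-4 63 and 15, beside 77 and 38. It called 2 of 12 eIF2 genes and 1 of 20 chaperones higher with LPS/IFNg. Of the 37 calls named from the lists, 0 changed sign under another background or scaling setting, and of 9 named results without a call, 2 did (P4hb with IL-4 and Gars with TGFb). Of the calls, 10 were made under all alternatives.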

Other observations

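Several textbook markers of the unfolded protein response, chosen after their values were seen, did not pass the limma test with LPS/IFNg. They do not stand for their lists, where 3 of 20 chaperones rose and 1 fell. Of the 26 degradation and transport genes 4 rose and 4 fell. Hspa5, the ER chaperone BiP, averaged 6.45 ± 0.44 log2 units with LPS/IFNg (SD, n = 2) and 5.68 ± 0.62 in untreated cells (SD, n = 3), a difference of 0.76 ± 0.34 (SE, adjusted p = 0.10). Hyou1, another ER chaperone, averaged 6.01 ± 0.70 and 5.19 ± 0.02 in the same groups, and its arrays did not overlap (adjusted p = 0.0511). Herpud1, an ER stress-inducible degradation factor, averaged 11.17 ± 0.01 with LPS/IFNg and 10.24 ± 1.01 in untreated cells (adjusted p = 0.232). Dnajb9, a co-chaperone regulated by XBP1, differed by 0.11 ± 0.21 (SE, adjusted p = 0.700).

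Outside the ER, Atf3, a transcription factor that ATF4 induces, averaged 11.72 ± 0.31 with LPS/IFNg (SD, n = 2) and 10.23 ± 1.32 in untreated cells (SD, n = 3) and did not pass (adjusted p = 0.188). Slc7a11, the cystine transporter, averaged 8.94 ± 1.28 with LPS/IFNg and 7.18 ± 0.85 in untreated cells (adjusted p = 0.0709). Cebpg, a dimer partner of ATF4, fell by 0.85 ± 0.19 (SE, adjusted p = 0.0040). Rars, which passed with IL-4, also rose with LPS/IFNg, by 1.08 ± 0.17 (SE, adjusted p = 0.000642), as did Eif2b2 by 0.63 ± 0.18 (adjusted p = 0.0149), in comparisons that share the untreated arrays.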
